A study of Mus musculus with 4 samples.

Results

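The 72 promoters described here belong to 4 families of enzymes that clear drugs, hormones and bilirubin. They are the rows of a table of 26354 promoters whose gene symbol begins with Ugt, Sult or Ces and a digit, or with Gst, a class letter (a, m, p, t, o, k or z) and a digit. The count is 18 Ugt, 15 Sult, 20 Gst and 19 Ces promoters, and each of the 72 symbols matches 1 gene of the GENCODE annotation of GRCm38. H3K9me2, a histone mark associated with repressed genes, was measured by ChIP-seq in vascular smooth muscle cells (VSMCs) of male C57Bl/6J mice. The material was the medial layer of the aorta, taken directly from tissue after the adventitial and endothelial layers had been removed by hand. All libraries came from tissue of the same strain and no treatment or genotype is named, while the age of the animals, their number per library and any pooling were not given in the sources used here. There were 2 independent experiments, v102 and v134, and each gave a ChIP library (H3K9me2) and an input library of sheared chromatin that was not immunoprecipitated.

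UDP-glucuronosyltransferases (Ugt) attach glucuronic acid to bilirubin, steroids and drugs, and sulfotransferases (Sult) attach sulfate to steroids, bile acids and phenols. Glutathione S-transferases (Gst) couple glutathione to reactive electrophiles, and carboxylesterases (Ces) cleave ester bonds in drugs and lipids. Many Ugt, Sult and Ces genes are expressed mainly in the liver and are switched on there by liver-enriched factors and nuclear receptors, whereas most Gst genes are expressed in many tissues as part of the response to oxidative stress.

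The letters upstream of the start differ between these promoters, and 9 are printed here as examples of a contrast. Of the 72 genes, 63 had a promoter in the RefSeq sequence table (GRCm38.p6), which runs from 250 bases before to 50 bases after the start. For Gsta2, Gstp2, Sult2b1 and Ugt3a1 the RefSeq start lay over 1 kb from the GENCODE start. Their letters may therefore lie outside the window in which reads were counted. Each line gives the 120 bases before the RefSeq start, 5′ to 3′ on the strand of the gene. Capitals mark CG pairs, the sites of DNA methylation. The first 6 promoters were called above input in the comparison with input reads described below, and the last 3, from widely expressed Gst genes, were not.
Sult2a3 (chr7:14123049-14123168, minus strand): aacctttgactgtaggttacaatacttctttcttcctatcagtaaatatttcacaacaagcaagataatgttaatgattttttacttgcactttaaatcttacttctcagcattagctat
Sult2a5 (chr7:13623847-13623966, plus strand): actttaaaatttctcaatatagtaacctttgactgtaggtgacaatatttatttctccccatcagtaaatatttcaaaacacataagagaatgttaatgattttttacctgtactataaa
Sult2a6 (chr7:14254871-14254990, minus strand): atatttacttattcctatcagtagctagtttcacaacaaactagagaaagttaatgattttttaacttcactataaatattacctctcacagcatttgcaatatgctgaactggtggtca
Ugt1a1 (chr1:88211839-88211958, plus strand): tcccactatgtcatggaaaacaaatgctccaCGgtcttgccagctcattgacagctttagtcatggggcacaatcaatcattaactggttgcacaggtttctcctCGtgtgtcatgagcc
Ugt2a3 (chr5:87337196-87337315, minus strand): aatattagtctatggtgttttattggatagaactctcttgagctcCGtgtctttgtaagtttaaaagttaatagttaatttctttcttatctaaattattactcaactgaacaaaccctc
Ces1e (chr8:93229620-93229739, minus strand): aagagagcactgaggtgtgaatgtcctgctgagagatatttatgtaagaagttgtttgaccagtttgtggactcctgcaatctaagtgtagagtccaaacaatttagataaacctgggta
Gstm1 (chr3:108017974-108018093, minus strand): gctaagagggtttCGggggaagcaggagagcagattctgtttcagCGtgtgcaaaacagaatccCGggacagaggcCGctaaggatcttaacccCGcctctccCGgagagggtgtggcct
Gstz1 (chr12:87147045-87147164, plus strand): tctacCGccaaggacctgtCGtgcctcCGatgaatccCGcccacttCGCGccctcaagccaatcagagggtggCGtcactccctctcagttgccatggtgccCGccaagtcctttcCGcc
Gsto1 (chr19:47854853-47854972, plus strand): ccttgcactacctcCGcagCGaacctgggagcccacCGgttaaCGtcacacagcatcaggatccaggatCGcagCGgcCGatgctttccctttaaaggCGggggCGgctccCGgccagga

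The 3 Sult2a stretches and Ces1e contain no CG pair, Ugt2a3 contains 1 and Ugt1a1 contains 2. Gstm1, Gstz1 and Gsto1 contain 6, 9 and 10 CG pairs. Over the 63 members the median was 1 CG pair in this stretch, compared with 6 over 15102 promoters of listed genes, and 34.9% of members had none, compared with 12.3% of all. The families differed, with a median of 0 for Sult, 0.5 for Ugt, 1 for Ces and 5 for Gst. The 3 printed Gst stretches all lie above their family median. Sult2a4, the highest member, and Gsto2, the only Gst promoter called above input in the full comparison, are not printed. The ratio of CG pairs found to those predicted from base content (CpG observed/expected) was 0.36 and 0.62 in their 2-kb windows. Its median was 0.18 over the members.

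Motifs of known regulators were searched on both strands of the whole RefSeq promoter. TGACNNNGC, the core of the antioxidant response element bound by NRF2, was found in Gsta3 and Gstm5 only, 2 of 63 members (3.17%), compared with 13.6% of all promoters. GCGTG, the core of the element bound by the aryl hydrocarbon receptor, was found in 10 members (15.9%), among them Gstm1, Gstp1 and Ugt1a5, compared with 40.6% of all promoters. TATAAA was found in 12 members (19.0%), compared with 12.4% of all promoters. CAAAGTCCA, a form of the HNF4 motif, was in none of the members and in 0.450% of all promoters. GCGTG itself contains a CG pair. A match describes the letters of this window and is not a measurement of binding.

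Reads were counted by the authors within 1 kb of each start. Over all promoters the ChIP libraries held 162233 (v102) and 229605 (v134) reads and the input libraries 619100 and 1084349 reads, with medians per promoter of 4 and 5 (ChIP) and 20 and 37 (input). Single promoters therefore rest on few reads, and the totals are sums over the table, not sequencing depths. The log2 H3K9me2/input ratio of an experiment was computed here from the promoter's share of ChIP reads and its share of input reads, with 1 read added as a pseudocount. A value of 0 means that the promoter has the same share of ChIP and of input reads. Its mean over the experiments was ranked among all 26354 promoters and is given as a percentile. Of the smooth muscle marker promoters Acta2, Myh11, Tagln and Cnn1, Myh11 was called below input with 0 ChIP reads, and the 4 lay between percentiles 0.736 and 31.1. Gene expression was not analysed here, so the cell type could be checked only through these promoters. Of 4 promoters of genes that mark other cells of the vessel wall, Ptprc (leukocytes) was called above input, Pecam1 (endothelium) and Pdgfra (fibroblasts) below, and Cdh5 (endothelium) was not called. With the experiment number as a block Pecam1 and Pdgfra were not called. Actb, the negative control locus of the study, was called below input with 0 and 1 ChIP reads against 31 and 53 input reads. Magea2, the positive control locus, had 3 and 7 ChIP reads against 6 and 16 input reads. It lay at percentile 83.9 and was not called. A difference in the share of cells that carry the mark cannot be told apart from a difference in the amount per cell.

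Conjugation enzyme and carboxylesterase promoters were called above input more often than promoters in general. ChIP and input reads were compared by the quasi-likelihood test of edgeR at a Benjamini-Hochberg adjusted p of 0.05 over all promoters, and a promoter called above input had more ChIP reads for its input than a typical promoter did. Of the 72 members 33 (45.8%) were above input, compared with 18.6% of all promoters. Of the members, 1 was below input (1.39%), compared with 17.0% of all promoters, and 38 were called in neither direction. The median member lay at percentile 78.1, 40 members were in the top quartile of the mean ratio, 31 were in that quartile in each experiment and 10 lay below the median promoter. When the experiment number entered the model as a block, so that ChIP and input were compared within experiments, 28 members were above input compared with 15.8% of all promoters, and 1 was below compared with 8.30%. Without the v102 input 19 members (26.4%) were above input, compared with 11.5% of all promoters, and without the v134 input 18 were, compared with 11.7%. Neither setting left a member below input, compared with 1.88% and 1.95% of all promoters. Without the v102 ChIP 33 were above and 1 below, compared with 19.1% and 15.2%, and without the v134 ChIP 23 were above and 2 below, compared with 12.9% and 8.83%. DESeq2 called 19 above and 0 below, compared with 11.6% and 0.102%. It left 28 members without an adjusted p, among them Gsta4, the member that edgeR called below input, so these could not be called. Where each input had to reach 20 reads, 17 of 32 members were above, compared with 17.5%. The median log2 fold change of ChIP over input was 0.96 over the members and -0.35 over all promoters. The tests compare 2 libraries with 2, so the p-values reflect the spread between these libraries only.

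**Figure D1:**
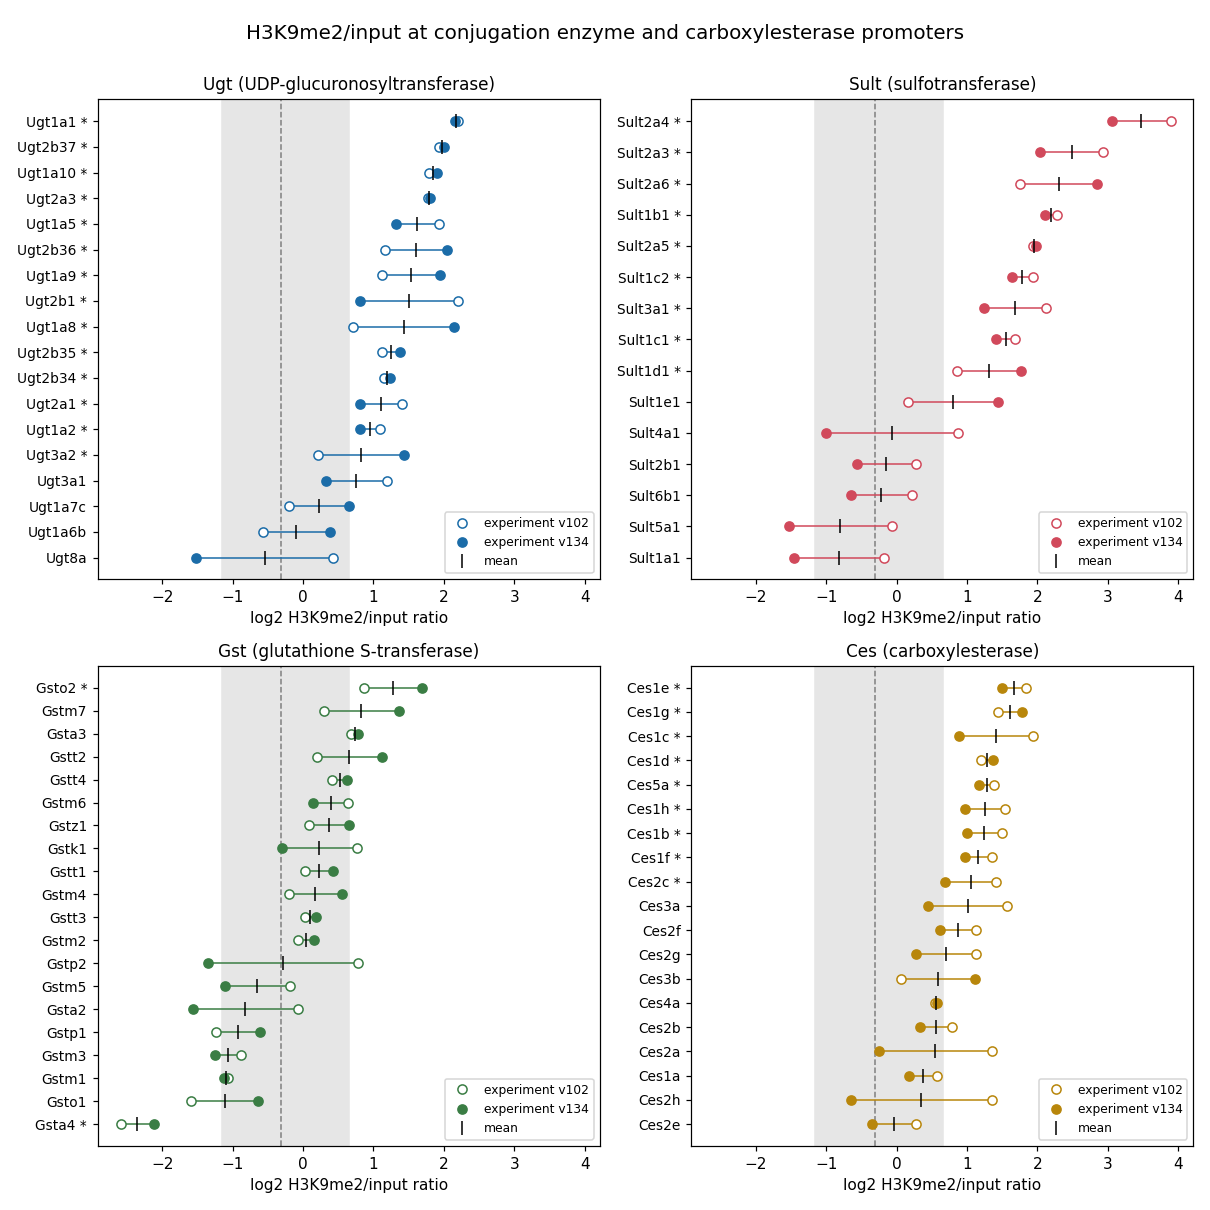
Log2 H3K9me2/input ratio (x axis) of each of the 72 promoters in experiment v102 (open circles) and v134 (filled circles), with their mean (vertical tick), sorted within each family. Asterisks mark promoters called by edgeR, the dashed line is the median of all promoters and the grey band the middle 50%. By their mean, 15 of 18 Ugt and 10 of 15 Sult promoters lie right of the band, as do 12 of 19 Ces promoters, and most Gst promoters lie inside it, with Gsta4 far to the left.

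The plot of each member by experiment shows that the order of the promoters was repeatable in part. Across the 72 members the ratios of the experiments had a Pearson r of 0.69 and a Spearman rho of 0.67, similar in size to 0.69 and 0.69 across all promoters. These are correlations across promoters, many of which are paralogs with a shared neighbourhood, and no p is given. The median difference between experiments was 0.67 on the log2 scale, and the largest was 2.13, at Gstp2.

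Among the sulfotransferases, Sult2a4, Sult2a3 and Sult2a6 had the 3 highest mean H3K9me2/input ratios of the 72 members. Sult2a enzymes sulfate bile acids and steroids such as dehydroepiandrosterone. Sult2a4 had 34 ChIP reads in v102 and 29 in v134, against only 8 and 16 input reads. Its log2 ratios of 3.89 and 3.06 placed it at percentile 99.99, the highest member in both experiments. Its log2 fold change was 3.66 ± 0.40 (SE; edgeR adjusted p = 2.09e-16), and the deposited H3K9me2/input ratio was 2.63 (Wilson 95% interval 1.65 to 4.18, counting error only). The gene is at chr7:13909676-13989607 of GRCm38, minus strand. Its input was among the lowest in the table, at percentile 1.19 of summed input reads, and whether reads that map to several Sult2a paralogs were kept was not given in the sources used here.

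The other Sult2a promoters were also high in both experiments. Sult2a6 had 22 and 37 ChIP reads against 25 and 24 input reads, a log2 fold change of 2.46 ± 0.37 (SE; edgeR adjusted p = 1.99e-09). Sult2a3 had 15 and 32 ChIP reads against 7 and 37 input reads (2.39 ± 0.39 SE; adjusted p = 5.23e-08). Sult2a5 had 9 and 14 against 9 and 17 (2.07 ± 0.52 SE; adjusted p = 6.85e-04). With reads summed over the 4 promoters, the log2 ratio was 2.64 (95% counting interval 2.13 to 3.15) in v102 and 2.49 (2.10 to 2.89) in v134. Against the 6 Sult1 promoters this was higher by 1.44 (0.77 to 2.12) in v102 and 1.14 (0.64 to 1.64) in v134. The Sult2a promoters are alike in sequence, with 80.7% identity between Sult2a3 and Sult2a5, compared with a median of 51.0% over the 469 pairs within families. Between experiments the sum over the 4 promoters differed by less than its counting interval.

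Outside Sult2a the sulfotransferases split into a high and a low set. Sult1b1, which sulfates thyroid hormones and small phenols in liver and gut, had 13 and 29 ChIP reads against 10 and 32 input reads, a log2 fold change of 2.27 ± 0.40 (SE; edgeR adjusted p = 5.81e-07). Sult1c2 (15 and 36 against 15 and 55), Sult1c1 (20 and 25 against 24 and 45), Sult1d1 (9 and 22 against 20 and 31) and Sult3a1 (15 and 16 against 13 and 33) were also called above input. Sult1e1, the estrogen sulfotransferase, had 4 and 15 ChIP reads against 16 and 27 input reads and was not called (1.06 ± 0.50 SE; edgeR adjusted p = 0.0814). The remaining 5 were not called either. Sult1a1, the widely expressed phenol sulfotransferase, had 5 and 3 ChIP reads against 25 and 51, Sult5a1 had 4 and 2 against 19 and 40, and Sult6b1 had 6 and 6 against 22 and 51. Sult4a1, a brain form, had 10 and 3 against 22 and 37, and Sult2b1, the cholesterol sulfotransferase of skin, had 5 and 5 against 18 and 41. The window of Sult2b1 overlaps that of Lmtk3, so these share reads. In all, 9 of 15 Sult promoters (60.0%) were above input and none below, compared with 18.6% and 17.0% of all promoters. The median percentile of the Sult promoters was 90.2.

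The median percentile of the 18 glucuronosyltransferase promoters was 87.0. Of these, 14 (77.8%) were above input and none below, compared with 18.6% and 17.0% of all promoters. The number was 11 with the experiment number as a block, 7 without the v134 ChIP, 8 without the v102 input, 7 without the v134 input and 8 by DESeq2, against 9, 8, 9, 7 and 8 of the 15 Sult promoters, so the order of these families by share above input changed with the setting. Ugt1a1, the only enzyme that clears bilirubin at a rate that sustains life, had 113 and 184 ChIP reads against 94 and 195 input reads. Its log2 ratios of 2.20 and 2.16 differed by little between experiments, and its log2 fold change was 2.31 ± 0.39 (SE; edgeR adjusted p = 1.06e-07). The gene is at chr1:88211959-88218997, plus strand. Its input reads were at percentile 99.9 of the table and repeats cover 30.3% of its window, and the part of these in its ratio was not tested.

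The other Ugt1a promoters share the last exons of a single locus, each driving its own first exon. Ugt1a10 had 9 and 14 ChIP reads against 10 and 18 input reads (log2 fold change 1.96 ± 0.52 SE; edgeR adjusted p = 0.00114), and Ugt1a9 had 15 and 35 against 27 and 43 (1.74 ± 0.36 SE; adjusted p = 2.91e-05). Ugt1a8 had 11 and 29 against 27 and 31, Ugt1a5 had 20 and 19 against 20 and 37, and Ugt1a2 had 13 and 12 against 24 and 34. All of these were called above input, Ugt1a2 just inside the threshold with an edgeR adjusted p of 0.0497. The exceptions were the neighbours Ugt1a7c and Ugt1a6b, which act on phenols. Ugt1a7c had 4 and 11 ChIP reads against 21 and 35 (0.35 ± 0.51 SE; edgeR adjusted p = 0.604) and Ugt1a6b had 2 and 7 against 16 and 28 (-0.03 ± 0.63 SE; edgeR adjusted p = 0.972). Without Ugt1a1 the summed log2 ratio of the Ugt1a promoters was 0.96 (95% counting interval 0.56 to 1.37) in v102 and 1.41 (1.09 to 1.72) in v134, compared with 1.58 and 1.80 with it.

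All 7 Ugt2 promoters were above input when all libraries were used. Without the v134 ChIP the number was 2 (Ugt2b37 and Ugt2a3), compared with 12.9% of all promoters, without the v102 input it was 3, without the v134 input 4, and by DESeq2 3. These enzymes glucuronidate steroids and bile acids, apart from Ugt2a1, an enzyme of the olfactory epithelium. Ugt2b37 had 8 and 16 ChIP reads against 8 and 19 input reads (log2 fold change 2.08 ± 0.51 SE; edgeR adjusted p = 4.89e-04), Ugt2a3 had 17 and 22 against 19 and 30 (1.92 ± 0.40 SE; adjusted p = 2.93e-05) and Ugt2b36 had 9 and 27 against 16 and 31 (1.86 ± 0.41 SE; adjusted p = 8.88e-05). Ugt2b35, Ugt2b1, Ugt2b34 and Ugt2a1 had log2 fold changes from 1.05 to 1.37. Ugt2b1 was uneven, with log2 ratios of 2.20 in v102 and 0.81 in v134. Ugt2a1, at 8 and 18 ChIP reads against 12 and 50, lost its call in the blocked fit, so 6 of 7 remained called there. Ugt3a2, with 6 and 19 reads against 22 and 34, was called above input (edgeR adjusted p = 0.0438) and lost the call with the block, whereas Ugt3a1, with 8 and 8 against 14 and 33, was not called. Ugt8a, which makes the galactolipids of myelin rather than clearing drugs, was the lowest of the family, with 5 and 1 ChIP reads against 16 and 26.

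Most carboxylesterase calls were in the Ces1 group. The products of this group hydrolyse drugs, cholesteryl esters and triglycerides. Of its 8 promoters 7 were above input, and with the adjoining Ces5a, an epididymal form, 8 of 9, compared with 18.6% of all promoters. Ces1e had 13 and 24 ChIP reads against 14 and 41 input reads (log2 fold change 1.71 ± 0.40 SE; edgeR adjusted p = 2.37e-04) and Ces1g had 16 and 36 against 23 and 50 (1.77 ± 0.36 SE; adjusted p = 1.66e-05). Ces1b, Ces1c, Ces1d, Ces1f, Ces1h and Ces5a had log2 fold changes from 1.26 to 1.47. Of these 9, Ces1e and Ces1g were the only 2 above input without the v102 input. The number was 4 without the v134 input, 5 without the v134 ChIP and 3 by DESeq2. DESeq2 called 11.6% of all promoters above input, and the shares of all promoters with 1 library left out are given above with the members. Ces1a was not called in the full comparison, with 6 and 10 reads against 17 and 45 (0.33 ± 0.49 SE; edgeR adjusted p = 0.611).

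In the group of Ces2, Ces3 and Ces4a promoters 1 of 10 was above input. This was Ces2c, a liver and gut enzyme, with 15 and 13 ChIP reads against 22 and 40 (1.13 ± 0.42 SE; edgeR adjusted p = 0.0266), and the call was lost with the experiment number as a block. Ces3a had 13 and 10 against 17 and 37 (1.05 ± 0.45 SE; edgeR adjusted p = 0.0558). Ces2e had 5 and 3 against 18 and 23, Ces2h had 9 and 4 against 14 and 36, and Ces2a had 7 and 4 against 11 and 27. All 3 had the larger ratio in v102, with log2 ratios of 0.27, 1.35 and 1.35 in v102 and -0.35, -0.65 and -0.25 in v134. The summed log2 ratio of Ces1 exceeded that of Ces2 by 1.04 (95% counting interval 0.54 to 1.54) in v134 and by 0.40 (-0.16 to 0.96) in v102, so the difference was beyond counting error in only 1 of the experiments. Over the whole family the median percentile was 81.8, and 9 of 19 (47.4%) were above input and none below, compared with 18.6% and 17.0% of all promoters. Without the v102 input 2 of 19 (10.5%) were above input, compared with 11.5% of all promoters, without the v134 input 4 were, and by DESeq2 3 were.

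Glutathione S-transferase promoters stood apart from the other families in the full comparison. Compared with 18.6% above and 17.0% below over all promoters, 1 of 20 (5.00%) was above input and 1 below, with a median percentile of 62.5. The promoter above input was Gsto2, an omega-class enzyme that reduces dehydroascorbate, with 9 and 14 ChIP reads against 20 and 21 input reads (1.39 ± 0.48 SE; edgeR adjusted p = 0.0149). With the experiment number as a block its adjusted p was 0.0518, which left no Gst promoter above input, compared with 15.8% of all promoters. Where each input had to reach 20 reads, 2 of 11 Gst promoters (18.2%) were above input, compared with 17.5% of all promoters. Gsto1, whose start lies 10.6 kb away, had 1 and 5 ChIP reads against 22 and 43 (-1.16 ± 0.64 SE; edgeR adjusted p = 0.140). The promoter below input was Gsta4, which detoxifies the lipid peroxidation product hydroxynonenal. It had 0 ChIP reads in v102 and 1 in v134 against 22 and 40 input reads, a deposited ratio of 0.0161 (Wilson 95% interval 0.00282 to 0.0924). Its edgeR adjusted p was 0.00317, and 0.0227 with the block, and the call was lost when either input was left out.

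None of the 7 mu-class promoters was called in the full comparison, and 1 was above input where each input had to reach 20 reads. Gstm1, a major cytosolic form, had 2 and 3 ChIP reads against 23 and 40 input reads, and Gstm3 had 3 and 3 against 27 and 44. At the other end of the class Gstm7 had 8 and 17 against 27 and 32 (log2 fold change 0.98 ± 0.44 SE; edgeR adjusted p = 0.0628). The theta class was not called either, with percentiles from 61.6 (Gstt3) to 75.0 (Gstt2), and the window of Gstt3 overlaps another listed promoter. Gstp1, the pi-class enzyme, had 0 and 4 ChIP reads against 8 and 35 input reads, and Gstp2 had 8 and 1 against 19 and 23, so its log2 ratios of 0.78 and -1.35 point in opposite directions. The RefSeq promoters of these pi-class genes share 80.3% of their letters, but that of Gstp2 may lie outside the counted window. Gsta3 and Gsta2, the liver forms, had 7 and 11 reads against 18 and 32 and 4 and 1 against 19 and 27, and neither was called. Gstk1, the mitochondrial kappa-class form, and Gstz1, which works in tyrosine breakdown, lay at percentiles 65.1 and 68.3. The window of Gstz1 overlaps that of Pomt2, and the window of Gstm5 overlaps another listed promoter, so these may share reads.

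Differences between families were larger than counting error in both experiments where Gst was one side. With reads summed over each family, Ugt exceeded Gst by 1.61 (95% counting interval 1.22 to 1.99) on the log2 scale in v102 and 1.51 (1.22 to 1.81) in v134, Sult exceeded Gst by 1.65 (1.23 to 2.07) and 1.22 (0.90 to 1.55), and Ces exceeded Gst by 1.35 (0.95 to 1.75) and 0.73 (0.41 to 1.05). The Ugt, Sult and Ces families were closer to each other. Sult minus Ugt was 0.05 (-0.31 to 0.40) in v102 and -0.29 (-0.56 to -0.02) in v134, Sult minus Ces was 0.30 (-0.07 to 0.67) and 0.49 (0.20 to 0.78), and Ugt minus Ces was 0.25 (-0.08 to 0.59) and 0.78 (0.52 to 1.04), so none of these 3 was beyond counting error in both experiments. Ugt1a1 gave 113 of the 280 Ugt ChIP reads in v102 and 184 of 479 in v134. Without it, an alternative chosen after seeing the data, Ugt minus Ces was -0.10 (-0.46 to 0.27) in v102 and 0.51 (0.22 to 0.79) in v134, Sult minus Ugt was 0.40 (0.01 to 0.78) and -0.01 (-0.30 to 0.28), and Ugt minus Gst was 1.25 (0.83 to 1.68) and 1.24 (0.92 to 1.56). The intervals cover counting error only, and 2 experiments cannot give an exact permutation p below 0.5.

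**Figure D2:**
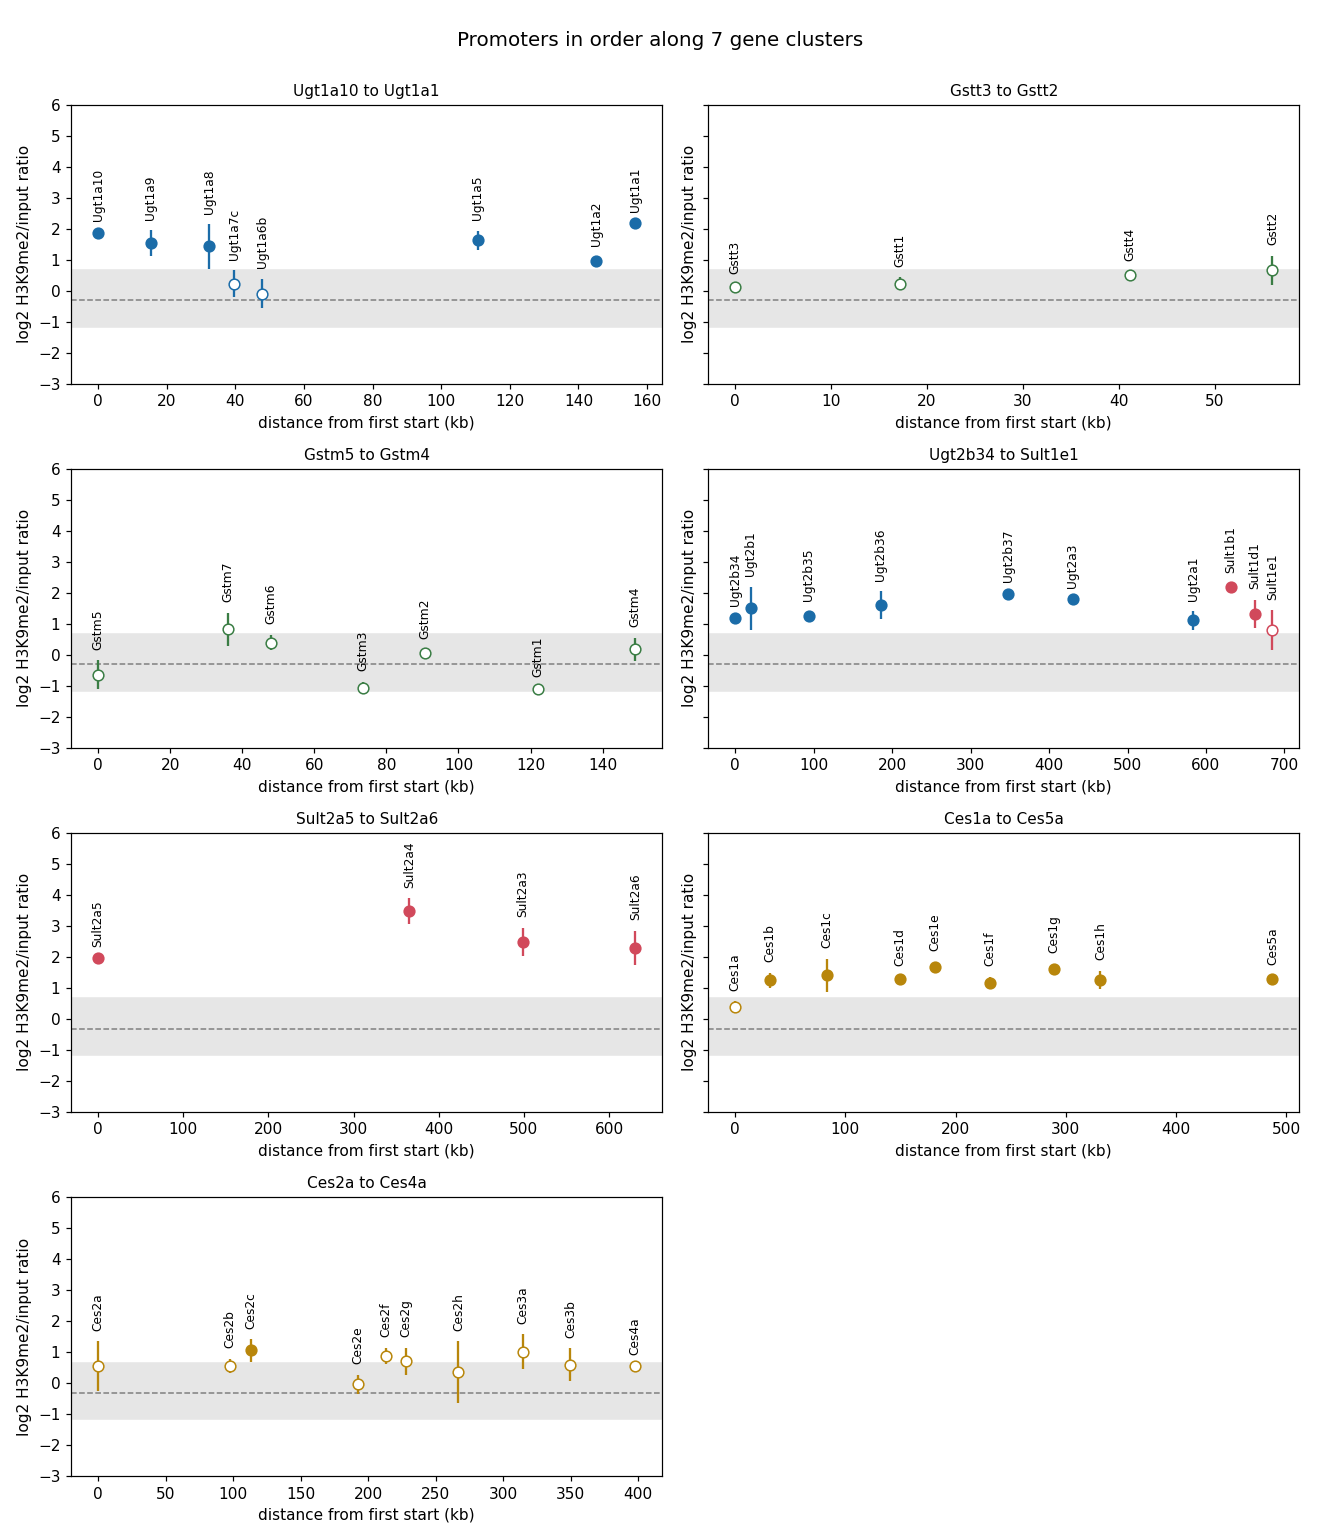
Mean log2 H3K9me2/input ratio (y axis) against distance in kb from the start of the leftmost listed member (x axis) in the 7 clusters with at least 4 members, coloured by family (blue Ugt, red Sult, green Gst, yellow Ces). Bars join the values of the 2 experiments, filled points were called by edgeR, and the grey band is the middle 50% of all promoters. The Ugt2 to Sult1 and Ces1 to Ces5a clusters are high along most of their length, Ugt1a7c and Ugt1a6b form a dip inside the Ugt1a cluster, and the Gstm and Gstt clusters stay near the band.

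The plot of ratio by position gives the members in their order along the chromosomes. Members with starts at most 500 kb apart were taken as a cluster. The share above input over all promoters, with all libraries, was 18.6%. On chromosome 5, 10 members from Ugt2b34 to Sult1e1 span 684.7 kb, and 9 were above input, every one except Sult1e1 at the end. Without the v134 ChIP 3 of these 10 were above input. On chromosome 7 the 4 Sult2a promoters span 630.9 kb and all were above input. On chromosome 8 the 9 promoters from Ces1a to Ces5a span 487.6 kb with 8 above input, whereas the 10 from Ces2a to Ces4a span 397.8 kb with 1 above. Without the v102 input these numbers were 2 and 0, and without the v134 ChIP they were 5 and 3. On chromosome 1 the 8 Ugt1a promoters span 156.6 kb with 6 above input, and 3 without the v134 input. Of the Gst clusters, the 7 Gstm promoters on chromosome 3 (149.1 kb) and the 4 Gstt promoters on chromosome 10 (56.0 kb) had none called. Outside these clusters, Sult1c2 and Sult1c1 on chromosome 17 were both above input. Neighbouring promoters are not independent of each other, so a count within a cluster is not a count of independent events.

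Members were then grouped by the tissue in which the gene is mainly expressed, from general knowledge and not from these data. The name liver-restricted stands here for expression mainly in the liver. Some genes of this class, such as Sult1b1 and Ces2c, are also expressed in the gut. Of the 27 liver-restricted members, 20 (74.1%) were above input and none below, with a median percentile of 90.0. Of the 16 widely expressed members, none was above input and Gsta4 was below, with a median percentile of 62.5. The background over all promoters was 18.6% above and 17.0% below. Of 12 members expressed mainly in another tissue, 5 were above input (Ugt2a1, Sult1c1, Sult1c2, Gsto2 and Ces5a), and of 17 members not classed, 8 were. Where each input had to reach 20 reads, 8 of 9 liver-restricted (88.9%) and 2 of 11 widely expressed members (18.2%) were above input, compared with 17.5% of all promoters. With the experiment number as a block the numbers above input were 19 for liver-restricted and 0 for widely expressed members, compared with 15.8% of all promoters. With 1 library left out they were 14 to 18 for liver-restricted members and 0 to 2 for widely expressed members.

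**Figure D3:**
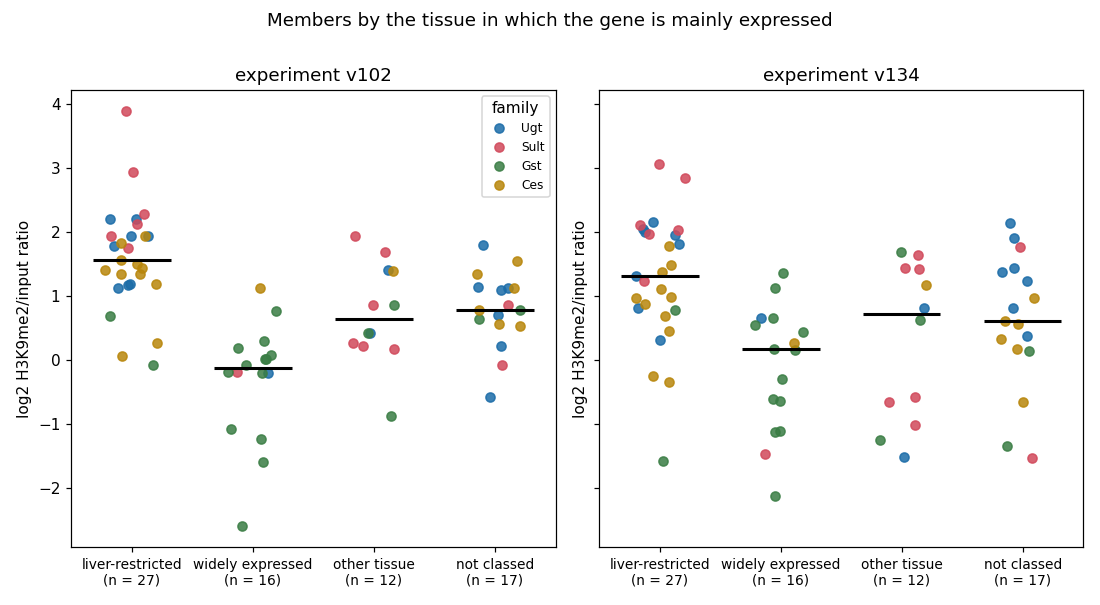
Log2 H3K9me2/input ratio (y axis) of each member in experiments v102 and v134, by the tissue in which the gene is mainly expressed (x axis), coloured by family, with the median as a black bar. Liver-restricted members have the highest median in both experiments, overlap with the widely expressed members, and include few Gst promoters, which make up most of the widely expressed set.

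With reads summed over each set, liver-restricted members had a log2 H3K9me2/input ratio of 1.72 (95% counting interval 1.54 to 1.90) in v102 and 1.58 (1.44 to 1.72) in v134, and widely expressed members had -0.25 (-0.61 to 0.11) and -0.01 (-0.28 to 0.26). The difference was 1.97 (1.57 to 2.38) in v102 and 1.59 (1.29 to 1.89) in v134, a mean of 1.78 ± 0.27 (SD, n = 2). The sets nevertheless overlapped, as the plot of members by tissue shows. The lowest liver-restricted member was Gsta2, at percentile 35.2, and the highest widely expressed member was Gstm7, at 78.4. The liver-restricted members that were not called were Ugt3a1, Gsta2, Gsta3, Ces2a, Ces2e, Ces3a and Ces3b.

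Tissue and family could be separated only in part, because 13 of the 16 widely expressed members are Gst and only 2 of the 27 liver-restricted members are. Without Gst, 25 liver-restricted members exceeded 3 widely expressed members (Ugt1a7c, Sult1a1 and Ces2g) by 1.47 (95% counting interval 0.78 to 2.16) in v102 and 1.81 (1.17 to 2.46) in v134. Within Gst, Gsta2 and Gsta3 differed from the 13 widely expressed members by 0.64 (-0.42 to 1.70) in v102 and -0.09 (-1.03 to 0.86) in v134, which is within counting error. A difference inside these bounds was not detectable within Gst at this depth. The effects of family and of tissue therefore cannot be told apart in the full set.

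**Figure D4:**
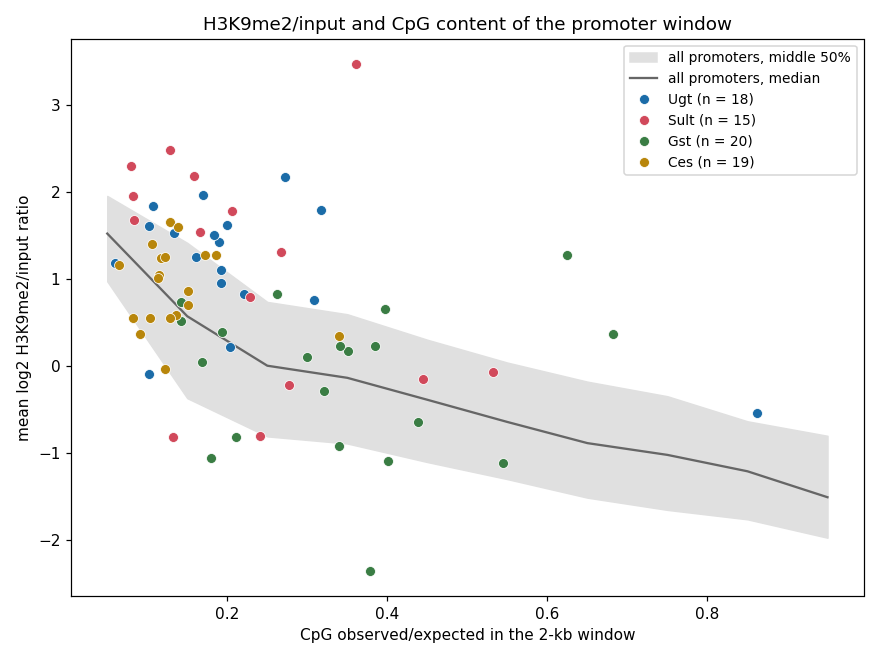
Mean log2 H3K9me2/input ratio (y axis) against the CpG observed/expected ratio of the 2-kb window around the start (x axis), for the members by family. The grey line and band are the median and middle 50% of all promoters in bins of CpG content. The ratio falls with CpG content over all promoters, most members sit at the CpG-poor end, and most Ugt and Sult points there lie above the line while several Gst points lie below it.

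Base composition moved with these results. Over all promoters, 35.5% of the 8256 with a CpG observed/expected ratio under 0.3 were above input, compared with 10.6% of the 6879 from 0.3 to 0.6 and 3.59% of the 7161 at 0.6 or more. Of the members, 53 were under 0.3, and 30 of these (56.6%) were above input. Among CpG-poor promoters, 13 of 15 Ugt, 8 of 12 Sult, 9 of 18 Ces and none of 8 Gst members were above input. By tissue, 18 of 24 CpG-poor liver-restricted members (75.0%) and none of 6 widely expressed members were above input. The 3 calls above input outside the CpG-poor class were Ugt2a3, Sult2a4 and Gsto2, the last at 0.62. This split was chosen after the data had been seen.

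The GC content of the window had a Spearman rho with the mean ratio of -0.73 across the 72 members and -0.55 across 22296 promoters, given as a description of windows that share libraries. Median GC was 45.5% in members, 48.9% in Gst members and 50.9% in all promoters. After a smooth trend of the ratio with GC had been removed over all promoters, the median percentile was 79.6 for liver-restricted and 59.1 for widely expressed members. By family it was 72.8 for Ugt, 77.7 for Sult, 76.2 for Ces and 57.6 for Gst. The part of base composition in the calls was not tested further.

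Cytochrome P450 enzymes act before conjugation, oxidising the same drugs and steroids, and their promoters were close to the members in H3K9me2/input. Of 82 Cyp promoters 35 (42.7%) were above input and 4 (4.88%) below, compared with 18.6% and 17.0% of all promoters. Their median percentile was 77.6. With summed reads the members differed from the Cyp promoters by -0.09 (95% counting interval -0.27 to 0.08) in v102 and 0.23 (0.09 to 0.37) in v134, which differ in sign. Among CpG-poor promoters the shares above input were 55.7% for 61 Cyp promoters and 56.6% for members. Solute carrier promoters, a large set of membrane transporters of many tissues, had 33 of 348 (9.48%) above input and 56 (16.1%) below. The members exceeded them by 1.23 (1.09 to 1.38) in v102 and 1.37 (1.26 to 1.49) in v134.

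Genes that serve the same pathway had few promoters above input in the full comparison. Of 38 such genes, 3 (7.89%) were above and 7 (18.4%) below, compared with 18.6% and 17.0% of all promoters. With the experiment number as a block 3 were above and 4 below, compared with 15.8% and 8.30% of all promoters. The median CpG observed/expected ratio was 0.54 for these genes and 0.18 for the members. Of all promoters with a ratio from 0.3 to 0.6, 10.6% were above input. The part of base composition in this difference was not tested. Of 11 regulators, the bile acid receptor Nr1h4 (21 and 20 ChIP reads against 27 and 38 input reads; log2 fold change 1.59 ± 0.38 SE; edgeR adjusted p = 3.90e-04) was above input. The xenobiotic receptor Nr1i2 and Cebpa were below input, and both lost the call with the experiment number as a block. Ahr, Nfe2l2 and Hnf4a were among those not called. Of 10 genes that supply the donors, none was above input and 3 were below. These were Ugdh, which makes UDP-glucuronic acid (0 and 2 ChIP reads against 29 and 55), Gclm, a subunit of the enzyme that makes the glutathione precursor (1 and 1 against 17 and 38; not called with the block), and Slc35b2, which carries the sulfate donor into the Golgi (0 and 2 against 20 and 51). The highest of this list, Papss2, had 11 and 14 against 22 and 54 and was not called.

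Of 12 other genes of drug metabolism, 16.7% were above and 16.7% below input, near the 18.6% and 17.0% of all promoters. The arylamine acetyltransferases Nat1 (18 and 25 ChIP reads against 21 and 32 input reads) and Nat2 (8 and 21 against 21 and 37) were above input. Ephx1, the microsomal epoxide hydrolase, had 0 ChIP reads in both experiments against 27 and 41 input reads, where a count of 0 allows up to 3 reads per library, and was below input, as was Mgst2. None of 5 efflux transporters was called, and the highest was Abcc2, which exports conjugated bilirubin, with 6 and 24 against 23 and 68.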

How the data were processed

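H3K9me2 ChIP and input libraries of 2 experiments were analysed. Per the labels and the methods of the study, the authors trimmed reads with Trim Galore 0.4.2 and Cutadapt 1.9.1, aligned them to GRCm38 with Bowtie2 2.2.7 and counted reads within 1 kb of each start in SeqMonk. The deposited table holds raw read counts per library and a ratio (ChIP reads over input reads, each summed over the experiments), which is not scaled for library size. The annotation release and the treatment of duplicates are not given in the sources used here. The lowest summed input was 21 reads, so the minimum of 20 was applied to the sum.

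Positions came from GENCODE M21, and sequences from RefSeq (GRCm38.p6). ChIP and input counts at all 26354 promoters were compared with edgeR 4.0.16 (R 4.3.3; quasi-likelihood test, TMM, Benjamini-Hochberg at 0.05), and as an alternative with DESeq2 1.42.0. Each standard error is the log2 fold change divided by the square root of F. Each ChIP has its own input, so the experiment number pairs libraries, and their v102 minus v134 differences had a correlation of 0.102 across 13964 promoters. Counting and Wilson intervals (95%) treat reads as independent molecules. The GC trend was a lowess fit (fraction 0.3).

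Members, tissue classes, partner lists and tests were chosen with earlier results of these data known. The tissue classes rest on general knowledge of expression. Promoters named in the text are all called members, the 4 highest and 3 lowest of each family, members of the tissue classes and clusters described, and of the partner lists those above input and the highest. A further regulator is not reported here. Names beyond these were chosen after their values were seen. Other steps ran in Python 3.11.15 (statsmodels 0.14.6, scipy 1.17.1, pandas 2.3.3).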

Additional observations from a re-analysis of the deposited data

How the results depend on the processing

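No member called above or below input changed direction under any alternative run. The number above input was 33. It was 28 with the experiment number as a replicate block, 29 with library totals in place of TMM, 33 without mitochondrial promoters, 17 of 32 members where both inputs had to reach 20 reads (17.5% of all promoters) and 19 by DESeq2 (11.6% of all promoters), which left 28 adjusted p-values undefined. Leaving out 1 library gave 18 to 33, and the counts moved by over 1.5 times without the v102 input (19, against 11.5% of all promoters) and without the v134 input (18, against 11.7%). The number below input was 1, and 0 by DESeq2 (1 member below at an unadjusted p under 0.05), with 0 to 2 on leaving out 1 library. Gsta4 lost its call without either input. The block ended the calls of Ugt1a2, Ugt2a1, Ces2c, Ugt3a2 and Gsto2 and no other. Of the 34 calls, 14 held in every setting that gave a value: Ugt1a1, Ugt1a5, Ugt1a9, Ugt2a3, Ugt2b37, Sult1b1, Sult1c1, Sult1c2, Sult2a3, Sult2a4, Sult2a6, Sult3a1, Ces1e and Ces1g. Library totals moved the median log2 fold change over the table from -0.35 to -0.50, and the shares above and below input from 18.6% and 17.0% to 16.3% and 21.5%.

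Where both inputs had to reach 20 reads, the median percentile was 95.3 for liver-restricted, 93.1 for Ugt, 79.0 for Sult and 89.7 for Ces members. It was 68.4 for Gst and 68.4 for widely expressed members. With the GC trend removed it was 79.6 for liver-restricted, 72.8 for Ugt and 77.7 for Sult members. Without Sult2a4 the Sult median was 88.4. With 1 experiment left out, the medians ranged from 86.7 to 88.5 (liver-restricted), 49.6 to 64.2 (widely expressed), 81.5 to 87.2 (Ugt), 88.7 to 90.1 (Sult), 53.9 to 63.7 (Gst) and 75.8 to 85.2 (Ces). The difference of liver-restricted minus widely expressed members was 1.40 from the medians of members in place of 1.78 from summed reads, 1.59 to 1.97 with 1 experiment left out, and 1.54 without Ugt1a1 and Sult2a4, 1.64 without Gst. The causes of these shifts were not tested. The alternatives that left out Gst, Sult2a4, Ugt1a1, or Ugt1a1 with Sult2a4 were chosen after seeing the data. With 4 to 5 ChIP reads at the median promoter, only large differences at single promoters could be detected.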
